A study of Mus musculus with 18 samples.

Results

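The genes described here encode the respiratory chain and ATP synthase of mitochondria. They were taken by symbol as protein-coding rows that start with Nduf, Uqcr, Cox4 to Cox8, Atp5 or mt-, or that are Sdha, Sdhb, Sdhc, Sdhd, Cyc1 or Cycs. The rule found 109 of the 54532 rows of the count table. Of these, 93 are nuclear genes expressed in most tissues or in tissues other than muscle, 3 are the muscle isoforms Cox6a2, Cox7a1 and Cox8b, and 13 lie in the mitochondrial genome. The rule leaves out 37 further rows with such symbols, 24 of them mitochondrial rRNA and tRNA genes and 13 of them nuclear rows such as pseudogenes.

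Messenger RNA was sequenced from 18 tumours grown in mice from the breast cancer line PB2, to compare tumours with and without p95HER2, a shortened HER2 receptor. The labels give 8 tumours the genotype p95HER2 and 10 tumours the genotype EV, and all mice of both groups received a doxycycline diet. Whether the tumours of a group grew in different animals is not labelled, and p-values therefore cover the spread among these 18 libraries only, which may be technical. The labels also do not name the promoter behind p95HER2, a clone, or the strain, sex or age of the mice.

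The respiratory chain passes electrons from NADH and succinate through complexes I, II, III and IV to oxygen. The protons pumped by complexes I, III and IV drive ATP synthase, also called complex V. Most subunits are encoded in the nucleus and imported, complex II entirely so, while the mitochondrial genome encodes a core of hydrophobic subunits of complexes I, III, IV and V. Some complex IV subunits exist as a general form and as a form used in heart and skeletal muscle.

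Library totals were 32686558 to 34804640 counts in p95HER2 tumours and 35030920 to 38464541 counts in EV tumours, with no overlap of the groups. Erbb2, which encodes HER2, was at 122 to 231 CPM in p95HER2 tumours and at 60.4 to 74.9 CPM in EV tumours, where CPM is the count divided by the scaled library total in units of 1e+06 counts (log2 fold change 1.22, SE 0.10, edgeR adjusted p = 2.89e-07). Several tumours stood apart. EV 2, EV 5 and p95HER2 7 had the lowest mitochondrially encoded level, and p95HER2 4 and EV 1 had the lowest level of skeletal muscle markers in their groups. Results that rest on them are given with and without them. Of the other marker lists, 6 of 9 tested adipocyte genes, 5 of 12 macrophage genes, 2 of 10 T cell genes, 1 of 10 fibroblast genes and 1 of 12 epithelial genes were called lower in p95HER2 tumours, against 4.45% of all genes. Called higher were 1 macrophage, 1 epithelial and 1 of 5 erythroid genes, against 5.73% of all genes. The part of the macrophage, T cell, fibroblast and erythroid markers in the results below was not tested, and that of the adipocyte markers was examined only for the slopes on the muscle level. Since the samples are bulk tumours, fewer cells of a type and less RNA per cell cannot be told apart.

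Respiratory chain genes of the nucleus and of the mitochondrion were at almost the same mean level in both groups, but the 3 classes varied very differently from tumour to tumour. The mean of the 90 tested nuclear genes was 6.46 ± 0.07 log2 CPM in p95HER2 tumours (SD, n = 8) and 6.45 ± 0.07 log2 CPM in EV tumours (SD, n = 10). The mean of the 13 mitochondrially encoded genes was 6.93 ± 0.25 log2 CPM in p95HER2 tumours and 6.91 ± 0.52 log2 CPM in EV tumours. The mean of the 3 muscle isoforms was 1.92 ± 0.95 log2 CPM in p95HER2 tumours and 2.82 ± 1.32 log2 CPM in EV tumours. All 3 pairs of ranges overlapped.

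Between the lowest and the highest of the 18 tumours, the nuclear mean spanned 1.20-fold, the mitochondrial mean 3.16-fold and the muscle isoform mean 25.1-fold. The last 2 spans rest in part on the tumours that stood apart. Without EV 2, EV 5 and p95HER2 7, the mitochondrial mean ran only from 6.88 (p95HER2 1) to 7.43 log2 CPM (EV 9). Without EV 1 and p95HER2 4, the muscle isoform mean ran from 1.07 (p95HER2 7) to 4.11 log2 CPM (EV 9). The median within-group SD per gene, over all 18 tumours, followed the order of the 18-tumour spans, with overlap between the classes. It was 0.11 log2 for nuclear genes, 0.45 log2 for mitochondrially encoded genes and 1.30 log2 for muscle isoforms, against 0.19 log2 for all 17123 genes tested and 0.12 log2 for the 6848 genes with a mean of at least 5 log2 CPM. Of the nuclear genes, 79 reached that level, and their median SD was 0.11 log2.

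**Figure D1:**
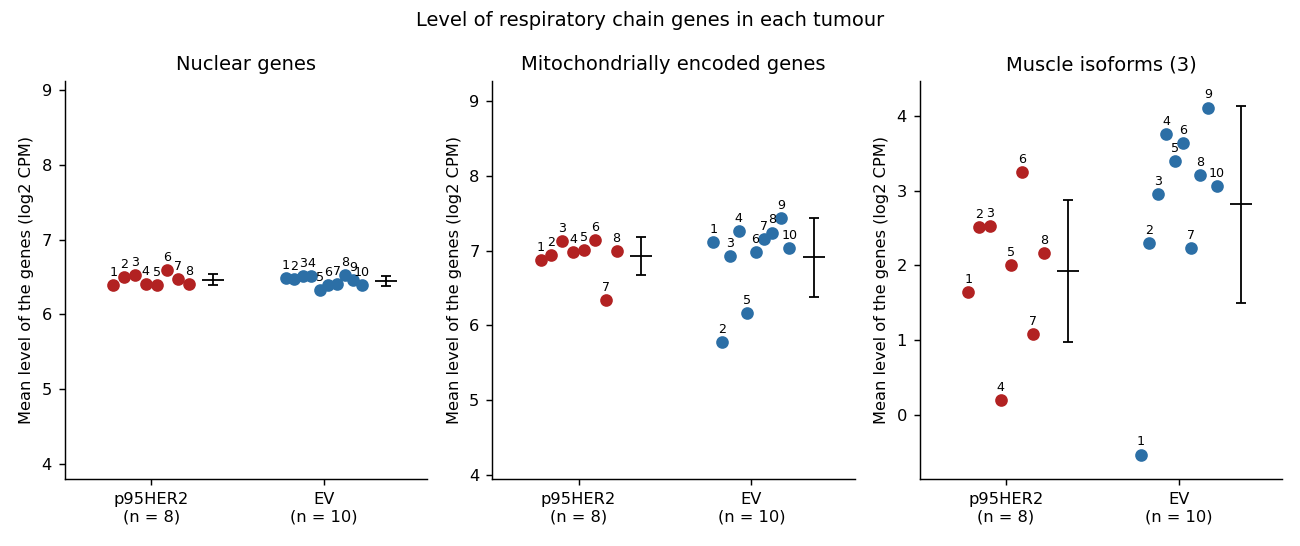
Mean log2 CPM of the 90 nuclear genes, the 13 mitochondrially encoded genes and the 3 muscle isoforms in each tumour (numbered points, p95HER2 left of EV), with group mean and SD beside them; the 3 axes span the same number of log2 units. Nuclear means lie between 6.33 and 6.59, EV 2, EV 5 and p95HER2 7 lie apart in the mitochondrial panel, and the muscle isoforms run from -0.53 in EV 1 to 4.11 in EV 9.

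In the comparison of p95HER2 with EV tumours, edgeR's quasi-likelihood test with Benjamini-Hochberg (BH) adjustment called 1743 of 17123 genes, or 10.2%, at an adjusted p under 0.05. It called 5.73% of genes higher and 4.45% lower. Of the 90 nuclear respiratory genes tested, 3 were called higher and 0 lower. At an unadjusted p under 0.05, 8 nuclear genes were higher and 6 lower, against 26.3% of all genes in either direction. With DESeq2, 1 nuclear gene was called lower, against 6.59% of all genes. With limma voom, 5 nuclear genes were called higher and 2 lower, against 7.27% and 6.03% of all genes. The median log2 fold change of the nuclear genes was 0.02, with 51 positive and 39 negative values, and that of all genes was -0.01. Cox7b2, Cox8c and a duplicate Atp5o identifier had almost no counts and were not tested.

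The 3 nuclear genes that rose were Atp5j2 and Atp5h, which encode small subunits of the membrane and stalk part of ATP synthase, and Ndufc2, which encodes an accessory subunit of complex I. Atp5j2 (chr5:145183698-145192062, minus strand, GRCm38) was at 529 to 692 CPM with a median of 584 CPM in p95HER2 tumours, against 402 to 543 CPM with a median of 489 CPM in EV tumours. Every p95HER2 tumour exceeded the EV median, and the groups overlapped only between 529 and 543 CPM. Its log2 fold change was 0.32 (SE 0.06, edgeR adjusted p = 0.0033), and it was called in each of the 18 fits that left out 1 tumour, with adjusted p up to 0.0091.

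Ndufc2 (chr7:97400003-97407802, plus strand) was at 116 to 151 CPM with a median of 130 CPM in p95HER2 tumours, against 93.0 to 131 CPM with a median of 113 CPM in EV tumours. Again all 8 p95HER2 tumours exceeded the EV median while the ranges overlapped. Its log2 fold change was 0.25 (SE 0.06, edgeR adjusted p = 0.0159). Without EV 2, EV 5 and p95HER2 7 the value was 0.22 with an adjusted p of 0.0611 in edgeR.

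Atp5h (chr11:115415689-115419962, minus strand) was at 392 to 476 CPM with a median of 427 CPM in p95HER2 tumours, against 316 to 436 CPM with a median of 368 CPM in EV tumours. It too was above the EV median in 8 of 8 p95HER2 tumours. Its log2 fold change was 0.21 (SE 0.06, edgeR adjusted p = 0.0328), a call that was lost in 8 of the 18 fits that left out 1 tumour (EV 5, EV 6, EV 7, EV 9 and p95HER2 2, 3, 5 and 6, adjusted p up to 0.0595). It was also lost without EV 2, EV 5 and p95HER2 7 together (adjusted p = 0.115) and when the muscle marker level was a covariate (adjusted p = 0.0541). Of its 50-base words, 19.9% also occur in transcripts of other genes, chiefly the pseudogene Gm10250, against 1.02% for Atp5j2 and 0% for Ndufc2. In this respect its count is the least certain of the 3. Gm10250 held 1358 counts over the 18 libraries, against 252960 for Atp5h.

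Genes around Atp5j2 were shifted in the same direction. Of the 22 other genes tested within 1 Mb of it on chromosome 5, 12 were called higher and 0 lower, and all had positive log2 fold changes, with a median of 0.30. Around Ndufc2, 3 of 21 neighbours were called higher and 1 lower, with a median of 0.02. Around Atp5h, 12 of 65 were called higher and 3 lower, with a median of 0.12. On chromosome 5 as a whole, 172 of 1145 genes tested were called higher. The other tested respiratory genes of that chromosome were Cox6a1 (log2 fold change 0.12, SE 0.06, edgeR adjusted p = 0.19) and Atp5k (-0.04, SE 0.07, adjusted p = 0.757), and neither was called. These neighbourhoods were looked at after the calls were seen.

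**Figure D2:**
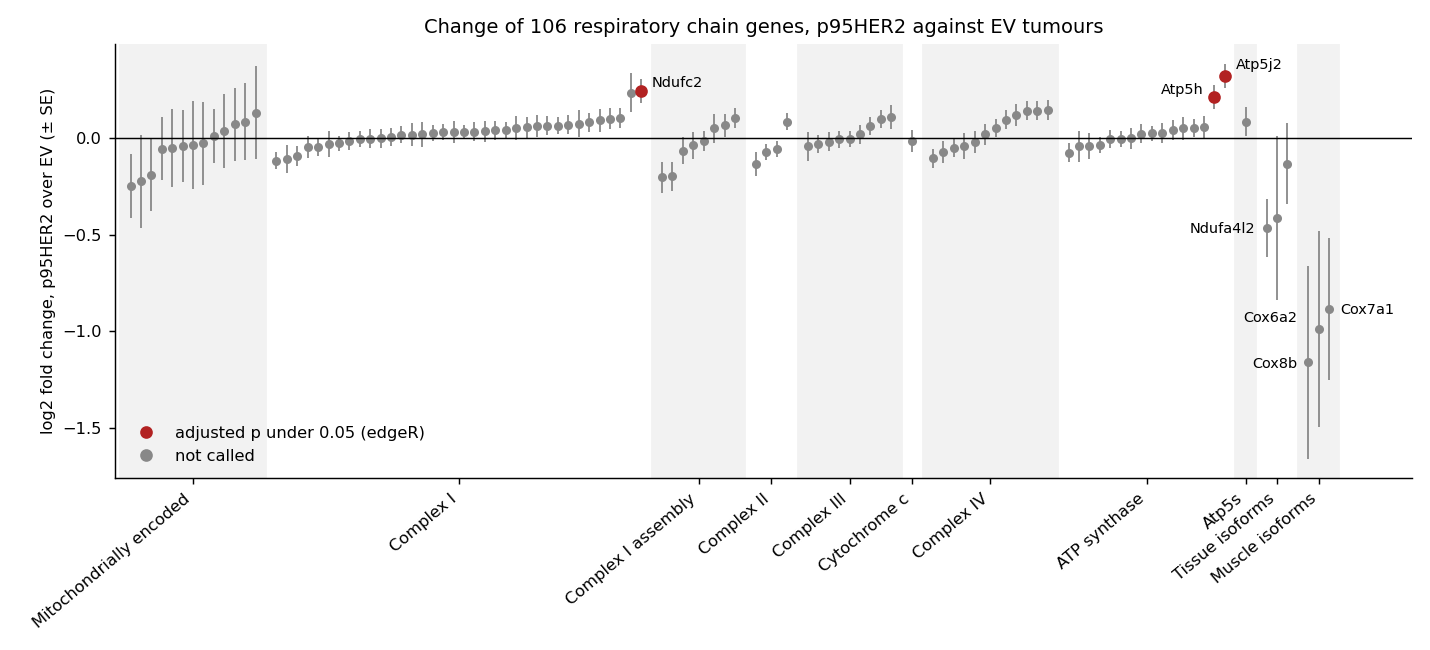
Log2 fold change of p95HER2 over EV tumours with its SE for the 106 respiratory chain genes tested, grouped by complex; red points have an edgeR adjusted p under 0.05. The red points are Ndufc2, Atp5h and Atp5j2, most nuclear subunits lie close to 0, and the 3 muscle isoforms at the right lie lowest with none of them called.

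Complex by complex, the nuclear genes stayed close to 0 on the log2 scale. Of 36 complex I subunits, 25 had positive log2 fold changes (median 0.03), and only Ndufc2 was called, against 10.2% of all genes. Ndufv1, the NADH-binding flavoprotein subunit, was the lowest of them at -0.12 (SE 0.04, edgeR adjusted p = 0.0886). Ndufc2 also had the highest level per length of the complex, at 160 CPM per kb of annotated exon. The 8 Ndufaf genes, which assist assembly of complex I, had a median of -0.02 and none was called. Among them Ndufaf8 had the highest level per length, 41.9 CPM per kb, and Ndufaf5 had the smallest p, at a log2 fold change of -0.20 (SE 0.07, edgeR adjusted p = 0.0936).

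Complex II, succinate dehydrogenase, is the only complex of the chain that also belongs to the tricarboxylic acid cycle. None of its 4 genes was called. Sdhd, a membrane anchor, was highest per length at 97.8 CPM per kb. Sdhb, the iron-sulphur subunit, was at 49.4 to 71.0 CPM in p95HER2 tumours and at 54.1 to 71.8 CPM in EV tumours (log2 fold change -0.13, SE 0.06, edgeR adjusted p = 0.185). Its ranges overlapped almost fully.

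None of the 9 complex III genes was called, and their log2 fold changes ran from -0.04 to 0.11. Uqcr10, a small subunit, was highest per length at 207 CPM per kb. Uqcrh, the hinge protein that contacts cytochrome c1, had the smallest p of the complex, at a log2 fold change of 0.10 (SE 0.05, edgeR adjusted p = 0.191) and 8 of 8 p95HER2 tumours above the EV median. Cycs, cytochrome c itself, averaged 148 ± 8.22 CPM in p95HER2 tumours and 150 ± 14.7 CPM in EV tumours (SD), with a log2 fold change of -0.01.

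Of the 12 genes of complex IV, cytochrome c oxidase, none was called. At an unadjusted p under 0.05 in edgeR, 5 of the 12 passed, against 26.3% of all genes. Of these, 4 were higher and 1 lower, against 13.0% and 13.3% of all genes. Cox8a, a small membrane subunit, had the highest level per length of the complex at 434 CPM per kb and a log2 fold change of 0.14 (SE 0.05, edgeR adjusted p = 0.0776). Cox7a2, another small membrane subunit, had a log2 fold change of 0.15 (SE 0.05, edgeR adjusted p = 0.0753). Both were called once EV 1 and p95HER2 4 were left out, Cox8a at an adjusted p of 0.0313 and Cox7a2 at 0.0469. Of the other 3, Cox5b had a positive log2 fold change of 0.14, Cox6a1 a positive one of 0.12, and Cox5a a negative one of -0.10.

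ATP synthase held the 2 calls described above, both higher, among its 16 tested genes, against 5.73% of all genes called higher. The other 14 had log2 fold changes between -0.07 and 0.06. Atp5h was highest per length of the complex at 272 CPM per kb. That rank rests on merged exon lengths of 1465 bp for Atp5h, 3306 bp for Atp5j2 and 4237 bp for Atp5b, of which the last 2 held more counts. Atp5b and Atp5a1, the catalytic core subunits beta and alpha, averaged 1113 ± 47.0 and 836 ± 33.7 CPM in p95HER2 tumours, against 1171 ± 103 and 820 ± 43.5 CPM in EV tumours (SD). Neither was called.

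Of the other nuclear genes, 3 tested isoforms are of restricted expression. Ndufa4l2, a relative of the complex IV subunit Ndufa4 that is known as a target of hypoxia-inducible factor, was at 2.42 to 4.86 CPM with a median of 3.27 CPM in p95HER2 tumours, against 3.79 to 7.68 CPM with a median of 4.71 CPM in EV tumours. It lay below the EV median in 7 of 8 p95HER2 tumours, but its log2 fold change of -0.46 (SE 0.15, edgeR adjusted p = 0.0554) missed the threshold. It passed in DESeq2 (adjusted p = 0.0242), in limma voom (0.0109), when epithelial markers were a covariate (0.0498) and without EV 1 and p95HER2 4 (0.0392). Of the 18 edgeR fits without 1 tumour it passed in 4 (EV 1, EV 3, p95HER2 6 or p95HER2 8). Adjusted p over the 18 ran from 0.0300 to 0.106. It was not called with the other scalings and filters tried or without EV 2, EV 5 and p95HER2 7. Ndufa4 itself had a log2 fold change of -0.02, and its value was 0.01 with the skeletal muscle level as a covariate. Cox4i2, the hypoxia- and lung-associated form of subunit 4, was at 0.521 to 1.57 CPM over all tumours, and per length it made up at most 0.837% of the sum of Cox4i2 and Cox4i1. Cox4i1, the general form, had a log2 fold change of -0.05.

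A promoter sequence shows the kind of element that some nuclear respiratory genes carry. In mammals, NRF1 and the ETS family factor GABP are known regulators of such genes. The RefSeq table of GRCm38.p6 held a promoter for 75 of the 95 symbols of nuclear and muscle isoform genes. In the 250 bases before the start, the NRF1 motif of 10 letters (GCGCA, any base, GCGC) occurred on either strand in 14 of 73 nuclear genes, or 19.2%, and in 3.74% of all 32851 promoters. The ETS motif CCGGAAG occurred in 14 of the 73 genes and in 6.91% of all promoters. A gene with several listed promoters was counted once if any held the motif, and a match describes the letters only. Counted by promoter, as for the shares of all promoters, 15 of 78 held the NRF1 motif (19.2%) and 14 of 78 the ETS motif (17.9%). Whether Atp5j2 and Ndufc2 carry these motifs is not given here, and a link between motif and change was not tested. Atp5h carried both and is shown as an example. Its bases from chr11:115419963-115420169, minus strand, 5′ to 3′, are shown up to the annotated gene, with the NRF1 motif in capitals. The ETS match lay downstream of the stretch shown.

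Atp5h: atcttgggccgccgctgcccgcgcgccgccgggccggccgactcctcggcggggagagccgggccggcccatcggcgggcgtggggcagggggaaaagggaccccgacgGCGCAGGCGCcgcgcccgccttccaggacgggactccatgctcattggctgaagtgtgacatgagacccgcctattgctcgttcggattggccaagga

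Turning to the mitochondrial genome, none of the 13 genes was called between p95HER2 and EV tumours by edgeR, 0 had an unadjusted p under 0.05, and DESeq2 and limma voom called 0 as well. The log2 fold changes ran from -0.25 to 0.13 with a median of -0.03, and their median SE was 0.19, against 0.05 for nuclear genes. Differences of that size are within the spread between tumours. The 7 subunits of complex I all had negative values between -0.22 and -0.03, of which those of mt-Nd2, mt-Nd4, mt-Nd5 and mt-Nd6 were positive with limma voom and with the muscle covariate. The 3 subunits of complex IV were all positive at 0.01 to 0.13, though mt-Co1 and mt-Co3 were negative without the 3 lowest tumours. Of the rest, mt-Cytb of complex III was at 0.09, and of ATP synthase mt-Atp6 was at 0.07 and mt-Atp8 at -0.25.

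mt-Co1, the catalytic subunit of complex IV, was at 4458 to 7919 CPM with a median of 6432 CPM in p95HER2 tumours, against 2445 to 8430 CPM with a median of 6525 CPM in EV tumours. mt-Cytb, the cytochrome b of complex III, was at 1864 to 3429 CPM with a median of 2845 CPM in p95HER2 tumours, against 1022 to 3698 CPM with a median of 2762 CPM in EV tumours. mt-Nd1, a membrane subunit of complex I, was at 972 to 1769 CPM with a median of 1522 CPM in p95HER2 tumours, against 683 to 2506 CPM with a median of 1781 CPM in EV tumours. For all 3 genes the p95HER2 range fell inside the EV range, and the lowest tumours were p95HER2 7 and EV 2. All 8 p95HER2 tumours lay below the EV median for mt-Nd1 and 4 did for mt-Co1.

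The 13 genes shared their low tumours. Together they took 0.908% to 1.65% of all counts in p95HER2 tumours, with a mean of 1.35 ± 0.215%, and 0.534% to 1.90% in EV tumours, with a mean of 1.35 ± 0.417% (SD). EV 2 was lowest at 0.534%, followed by EV 5 at 0.780% and p95HER2 7 at 0.908%, and the other 15 tumours lay between 1.23% and 1.90%. EV 2 was the lowest tumour for 11 of the 13 genes and EV 5 for the other 2. EV 2 and EV 5 were each among the 3 lowest tumours for 13 of 13 genes and p95HER2 7 for 12 of 13. At the other end, EV 9 was highest for 9 genes.

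In these 3 tumours the median deviation of the 13 genes from each gene's median over 18 tumours was -0.72 log2 in p95HER2 7, -1.40 log2 in EV 2 and -0.80 log2 in EV 5. For the 90 nuclear genes the median deviations were 0.02 log2 in p95HER2 7, 0.02 log2 in EV 2 and -0.13 log2 in EV 5. The value of EV 5 was the lowest of the 18 tumours. EV 5 was the lowest tumour for 31 nuclear genes and among the 3 lowest for 58, while p95HER2 7 was among the 3 lowest for 6 and EV 2 for 5. The summed mitochondrial rRNA genes, which are not among the 13, were also lowest there, at 226 CPM in p95HER2 7, 206 CPM in EV 2 and 238 CPM in EV 5, against 324 to 634 CPM in the other tumours. Library totals of the 3 tumours were 33229484, 36421678 and 38464541 counts, inside or at the edge of their groups' ranges, and their skeletal muscle levels were 4.87, 6.33 and 7.24 log2 CPM, where all 18 tumours ran from 2.46 to 8.01 log2 CPM. The part of RNA quality or handling in this was not tested.

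Without these 3 tumours the median log2 fold change of the 13 genes was -0.13. One gene, mt-Atp8, a small subunit of ATP synthase, was then called lower (log2 fold change -0.41, edgeR adjusted p = 0.0488), against 1.47% of the 17104 genes tested in that fit called lower, 3.03% higher and 4.51% in all. The tumours left out were chosen by the low values of these same genes, and EV 2 and EV 5 are the lowest of the EV group. With all tumours it was at 2.85 to 3.70 CPM with a median of 3.32 CPM in p95HER2 tumours, against 1.98 to 5.09 CPM with a median of 4.36 CPM in EV tumours, and all 8 p95HER2 tumours lay below the EV median (log2 fold change -0.25, SE 0.16, edgeR adjusted p = 0.359). It shares 21.1% of its length with mt-Atp6 on the same strand.

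**Figure D3:**
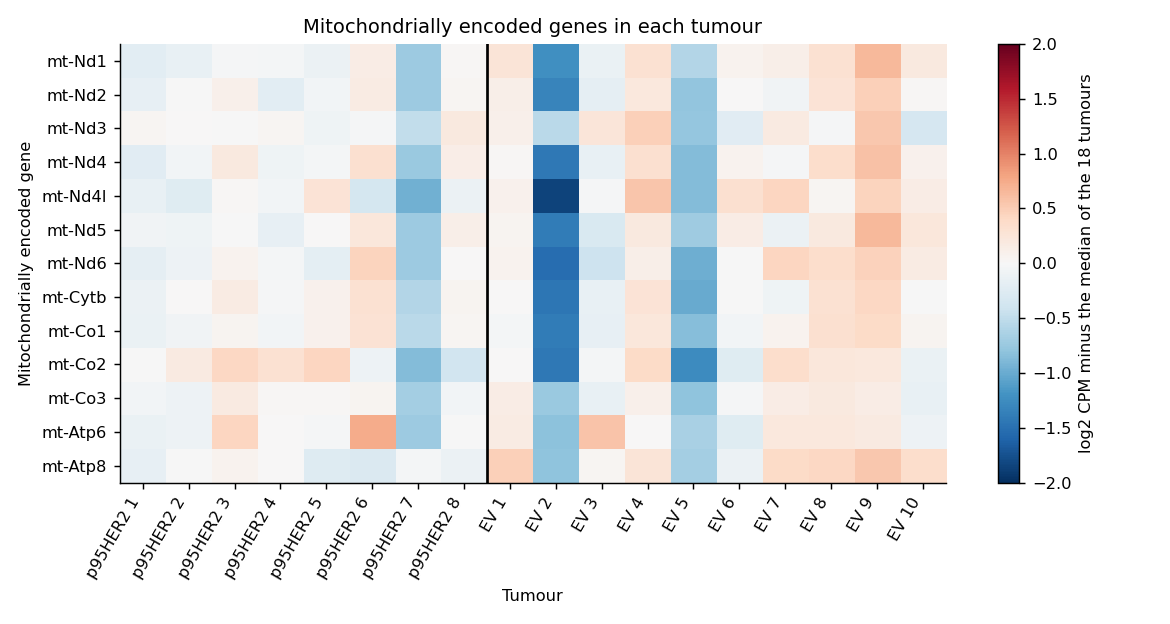
Log2 CPM of each mitochondrially encoded gene (rows) in each tumour (columns, p95HER2 left of the line, EV right of it) minus the gene's median over the 18 tumours. The columns of p95HER2 7, EV 2 and EV 5 are low in nearly every row, down to -1.85 log2 in EV 2, and EV 9 is high in most.

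Levels of the 13 genes differed widely per length. mt-Co1 was at 4059 CPM per kb, mt-Cytb at 2369, mt-Nd1 at 1665 and mt-Nd2 at 1167 CPM per kb. At the other end, mt-Nd3 was at 8.96 and mt-Nd4l at 7.32 CPM per kb, and mt-Co2, the copper-binding subunit that takes electrons from cytochrome c, was at 95.3 CPM per kb. Several of the low genes have near-identical copies in the nuclear genome. A copy on chromosome 1 (chr1:24611535-24616197, minus strand) is annotated as 7 pseudogenes. Among the genes of low level, mt-Atp8 shares no 50-base word with an annotated transcript of another gene. At 17.8 CPM per kb it was below mt-Co2, mt-Atp6 and mt-Co3. It starts between mt-Co2 and mt-Atp6, and the chromosome 1 bases between their copies Gm28661 and Gm10925 were not compared. Whether mt-Atp8 has a copy there was not tested.

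Of the 50-base words of mt-Co2, 100% also occur in transcripts of other genes, as do 99.9% of those of mt-Co3, 99.5% of mt-Atp6, 98.8% of mt-Nd4l and 98.0% of mt-Nd3. For mt-Nd4 the share was 62.2% and for mt-Co1 51.1%, for mt-Nd2 8.19% and mt-Nd5 7.61%, and for mt-Nd1, mt-Nd6, mt-Cytb and mt-Atp8 it was 0%. The pseudogene Gm28661 held 46514 counts over the 18 libraries, against 41528 for mt-Co2 itself, and Gm10925 held 31066, against 22048 for mt-Atp6. The counting rule for reads with several equal matches is not known from the labels, so the levels of the 5 genes with shares of at least 98.0% are uncertain, and the low level of mt-Co2 beside mt-Co1 is no measure of their transcripts.

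The first 80 bases of mt-Co2 (chrM:7013-7092, plus strand), of Gm28661 (chr1:24615486-24615565, minus strand) and of the more diverged copy Gm13341 (chr2:22587883-22587962, minus strand) show how alike the copies are. The sequences are from the GENCODE transcripts of GRCm38, 5′ to 3′, and capitals mark bases that differ from mt-Co2.

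mt-Co2: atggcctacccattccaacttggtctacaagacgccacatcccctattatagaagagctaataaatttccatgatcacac

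Gm28661: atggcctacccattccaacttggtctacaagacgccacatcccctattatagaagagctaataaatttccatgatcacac

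Gm13341: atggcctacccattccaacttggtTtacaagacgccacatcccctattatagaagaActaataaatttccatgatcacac

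Gm28661 matched mt-Co2 over all 681 aligned bases, and Gm13341 differed at 16 of 672. Gm13341 held 442 counts over the 18 libraries. The 6 mitochondrial genes with less than 10% of their words in annotated transcripts of other genes, mt-Atp8 among them, had a median log2 fold change of -0.04. The other 7 had one of 0.01, with none called in either set. The copies on chromosome 1 were also low in the 3 tumours, at 122 CPM in p95HER2 7, 90.3 CPM in EV 2 and 102 CPM in EV 5, against 169 to 238 CPM in the others.

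**Figure D4:**
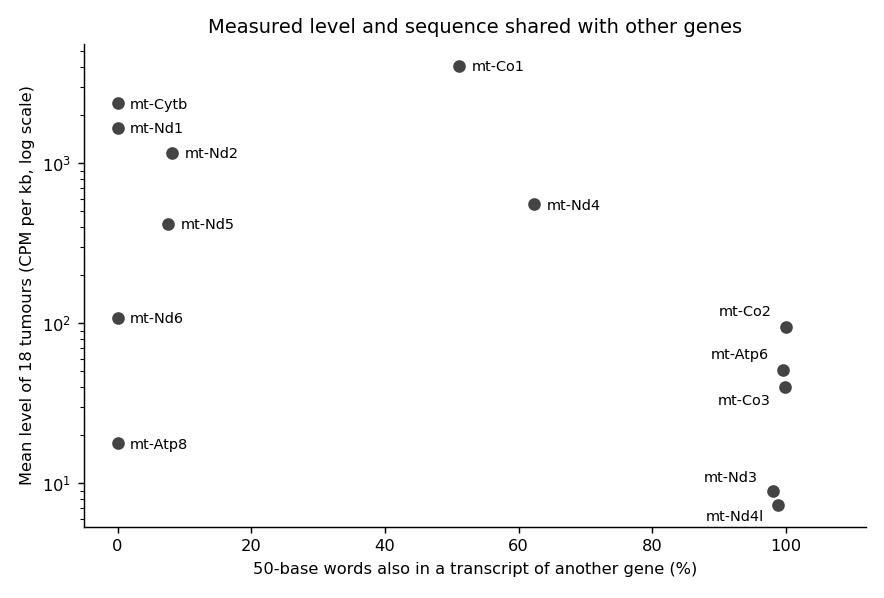
Mean level over 18 tumours in CPM per kb (log scale) of each mitochondrially encoded gene against the share of its 50-base words that also occur in a transcript of another gene. The 5 genes at 98.0% or more lie between 7.32 and 95.3 CPM per kb, mt-Co1 with 51.1% lies highest, and mt-Atp8 with 0% lies low at 17.8 CPM per kb. Only annotated transcripts were compared, so the 0% of mt-Atp8 does not cover bases outside them.

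The muscle isoforms of complex IV, all encoded on chromosome 7, varied most. Cox6a2, the heart and muscle form of subunit 6a, was at 1.85 to 24.8 CPM with a median of 11.2 CPM in p95HER2 tumours, against 0.708 to 40.2 CPM with a median of 25.1 CPM in EV tumours. Cox7a1, the muscle form of subunit 7a, was at 1.01 to 4.53 CPM with a median of 2.06 CPM in p95HER2 tumours, against 0.926 to 9.26 CPM with a median of 3.64 CPM in EV tumours. Cox8b, the muscle form of subunit 8, was at 0.686 to 7.53 CPM with a median of 3.15 CPM in p95HER2 tumours, against 0.381 to 13.8 CPM with a median of 7.07 CPM in EV tumours. Each range of the p95HER2 tumours lay inside that of the EV tumours, where EV 1 was lowest and EV 9 highest for all 3 genes.

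None of the 3 was called. The log2 fold changes were -0.99 for Cox6a2 (SE 0.51, edgeR adjusted p = 0.229), -0.89 for Cox7a1 (SE 0.37, adjusted p = 0.132) and -1.16 for Cox8b (SE 0.50, adjusted p = 0.146). Without EV 1 and p95HER2 4 together, Cox6a2 (-0.97, edgeR adjusted p = 0.038) and Cox8b (-1.15, adjusted p = 0.0431) were called lower and Cox7a1 (-0.89, adjusted p = 0.0804) was not, in a fit that called 5.18% of all genes lower, 5.69% higher and 10.9% in all. Without EV 1 alone, Cox7a1 (edgeR adjusted p = 0.0452) and Cox8b (adjusted p = 0.0362) were called lower. With the skeletal muscle level as a covariate, the values were 0.03 for Cox6a2, -0.30 for Cox7a1 and -0.24 for Cox8b, at adjusted p-values of 0.903, 0.332 and 0.339 in edgeR.

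The 25 skeletal muscle markers, none of which is a respiratory gene, moved with these isoforms. All 25 had counts in every tumour, and their sum was 573 to 4562 CPM in p95HER2 tumours and 190 to 9153 CPM in EV tumours, with EV 1 lowest and EV 9 highest. All 25 had negative log2 fold changes, with a median of -1.06, and none was called. In a fit with group and the mean muscle marker level as terms, edgeR called 7.83% of 17123 genes, 3.59% with a positive and 4.25% with a negative slope, and 22.9% at an unadjusted p under 0.05. All 3 muscle isoforms had positive slopes, given as log2 change per log2 unit of the marker level: 1.07 for Cox6a2 (SE 0.04, edgeR adjusted p = 4.44e-14), 1.01 for Cox8b (SE 0.07, adjusted p = 8.25e-10) and 0.60 for Cox7a1 (SE 0.08, adjusted p = 1.59e-05).

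Within the p95HER2 tumours alone the slopes were 1.17, 1.20 and 0.70 for Cox6a2, Cox8b and Cox7a1, and within the EV tumours alone 1.02, 0.93 and 0.58, each called by edgeR with adjusted p of at most 0.0135. Markers of slow muscle fibres, 7 of 7, also had positive slopes that were called. Markers of other cells varied with the muscle level too. The slope was positive for 10 of 10 T cell markers (median 0.40, 0 called, 8 at an unadjusted p under 0.05 in edgeR) and for 9 of 10 fibroblast markers (1 called), and 4 of 12 epithelial markers were called with negative slopes. The part of these cells in the slopes of the isoforms was not tested. Ucp1, the defining gene of brown fat, where Cox7a1 and Cox8b are also known to be expressed, had too few counts to be tested. Of the 6 listed brown fat markers, 3 were tested, and Elovl3 and Cpt1b were not among them either. Pdk4, which muscle also expresses, had a called slope of 0.78 (SE 0.10, edgeR adjusted p = 4.27e-05). Cidea at -0.19 and Ppara at -0.09 were not called. With the adipocyte marker level added to the fit, all 3 muscle isoforms were still called, with a median slope of 1.01. Of the 9 tested adipocyte markers, 7 had negative and 2 positive slopes on the muscle level, with a median of -0.32. That list holds general adipocyte genes and no brown fat marker. The part of brown fat in the slopes of the isoforms was therefore not tested.

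The general forms did not share the slope. Cox6a1 had a slope of -0.02, Cox7a2 one of -0.01 and Cox8a one of -0.01, and none was called. Per length, Cox6a2 made up 0.626% to 6.40% of the sum of Cox6a2 and Cox6a1 in p95HER2 tumours, with a median of 3.73%, and 0.228% to 13.2% in EV tumours, with a median of 8.48%. Cox7a1 made up 1.43% to 5.22% of its pair in p95HER2 tumours and 1.28% to 12.6% in EV tumours. Cox8b made up 0.462% to 3.96% of its pair in p95HER2 tumours and 0.238% to 9.22% in EV tumours. The general form made up the larger share in every tumour.

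**Figure D5:**
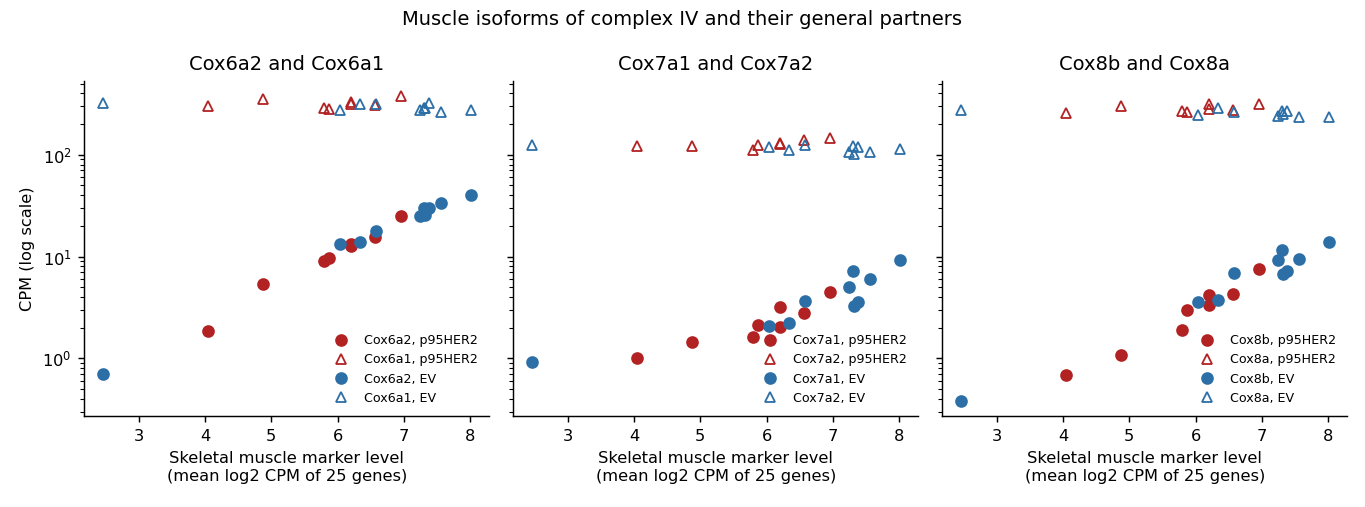
CPM (log scale) of each muscle isoform (filled circles) and of its general partner (open triangles) in each tumour against the mean log2 CPM of 25 skeletal muscle markers, p95HER2 in red and EV in blue. The isoforms climb with the marker level in both groups, with slopes of 1.07, 0.60 and 1.01, and the partners stay level.

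Of 90 nuclear genes, 1 was called with a positive slope (Sdhb, 0.07, SE 0.02, edgeR adjusted p = 0.0331) and 1 with a negative slope (Cox7a2l, a factor in the joining of complexes III and IV, -0.06, SE 0.02, adjusted p = 0.0468). Without EV 1 and p95HER2 4, Sdhb had an adjusted p of 0.598 and the slope of Cox7a2l was 0.01 (adjusted p = 0.951). Of the 18 fits without 1 tumour, Cox7a2l lost its call in 14 and Sdhb in 4 (without EV 1, EV 9, p95HER2 4 or p95HER2 6). With limma voom 0 of the 90 nuclear genes were called for the slope, against 3.39% of all genes, 2.28% with a positive and 1.11% with a negative slope. None of the 13 mitochondrially encoded genes was called by edgeR, 0 had an unadjusted p under 0.05, and their median slope was 0.04. That median depended on the tumours used. It was 0.15 in p95HER2 tumours alone, 0.02 in EV tumours alone, 0.14 with limma voom and 0.36 without EV 1 and p95HER2 4, and it ran from 0.02 to 0.21 when 1 tumour was left out.

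Promoters of the muscle isoforms Cox7a1 and Cox8b are shown because both genes varied with the muscle level. Neither held the NRF1 or ETS motif in the 250 bases before its start. The E-box CAGCTG is a form that myogenic regulators are known to bind. On either strand it occurred in Cox8b, in 5 of the 73 nuclear genes (5 of 78 promoters) and in 4271 of all 32851 promoters. TATAAA, searched likewise, occurred in neither Cox7a1 nor Cox8b and in 12.4% of all promoters. The E-box is in capitals. The stretches, RefSeq GRCm38.p6, are chr7:30183921-30184143, plus strand, for Cox7a1 and chr7:140900447-140900696, minus strand, for Cox8b.

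Cox7a1: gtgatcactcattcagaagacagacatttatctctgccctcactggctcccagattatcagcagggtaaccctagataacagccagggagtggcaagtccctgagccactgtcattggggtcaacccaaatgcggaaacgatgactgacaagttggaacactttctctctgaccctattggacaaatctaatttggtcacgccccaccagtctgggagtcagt

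Cox8b: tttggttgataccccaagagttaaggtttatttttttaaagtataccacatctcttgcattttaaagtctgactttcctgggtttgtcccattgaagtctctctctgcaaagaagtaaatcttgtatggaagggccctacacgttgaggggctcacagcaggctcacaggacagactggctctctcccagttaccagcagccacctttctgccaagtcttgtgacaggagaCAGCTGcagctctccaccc

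Among 140 tested genes of 7 related lists, which cover mitochondrial biogenesis, mitochondrial DNA and RNA handling, complex assembly, the tricarboxylic acid cycle, protein import and the hypoxia response, 3 were called higher and 4 lower, against 10.2% of all genes called. Cox19, a copper-handling assembly factor of complex IV, rose by 0.33 log2 (SE 0.06, edgeR adjusted p = 0.0023), and 13 of its 29 tested neighbours within 1 Mb on chromosome 5 were called higher. Fastk, which acts in mitochondrial RNA stability, rose by 0.31 log2 (SE 0.07, adjusted p = 0.0108), and it too lies on chromosome 5, where 14 of 38 neighbours were called higher. Car9, a carbonic anhydrase and hypoxia target, rose by 0.29 log2 (SE 0.06, edgeR adjusted p = 0.0069).

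Those that fell were Taco1, a translational activator of mt-Co1 (-0.33, SE 0.09, edgeR adjusted p = 0.0161), Mgme1, an exonuclease of mitochondrial DNA upkeep (-0.25, SE 0.07, adjusted p = 0.021), Tomm70a, an import receptor (-0.16, SE 0.05, adjusted p = 0.0396), and Sucla2, a subunit of succinyl-CoA ligase (-0.14, SE 0.04, adjusted p = 0.0288). None of the 11 biogenesis regulators was called, and 4 of them were lower at an unadjusted p under 0.05 and 0 higher, against 13.3% of all genes lower at that threshold. Of the 12 hypoxia genes 1 was called, with a median log2 fold change of 0.06.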

How the data were processed

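The authors deposited unscaled whole-number counts for Ensembl genes in every tumour. The tools STAR 2.5 and HTSeq 0.6.1 and the build mm10 come from the submitters' processing notes, and per the labels' protocols mRNA was enriched and libraries were directional. Counting options: not given in the sources used here. Identifiers were matched to GENCODE M21 of GRCm38 (54495 of 54532), and per length means per kb of merged exons. Merged exons cover all annotated transcripts of a gene, so ranks per length depend on the annotation. Genes were kept by filterByExpr (minimum count 10, total 15), scaled by TMM and tested in R 4.3.3 with the quasi-likelihood F-test of edgeR 4.0.16 over all 18 tumours, with Benjamini-Hochberg adjustment over 17123 genes. Log2 CPM used a prior count of 2. Words of 50 bases were compared with all other annotated transcripts on either strand.

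DESeq2 1.42.0 and limma 3.58.1, other scalings, filters, covariates and each tumour left out were tried, and 2 sets of tumours were left out jointly, a choice made after seeing the data. On simulated data with known changes, set up as p95HER2 against EV over 16970 genes, edgeR recovered 20 of 49 genes changed 1.25-fold, 29 of 49 changed 1.5-fold and 38 of 49 changed 2-fold, and called 6 of 16773 unchanged genes. Genes were drawn independently there, without shifts that many genes share in single tumours. These rates therefore need not hold for the mitochondrially encoded genes or the muscle isoforms. The genes and lists were chosen with earlier results of these data known. Named are all called members, all mitochondrially encoded genes, the muscle isoforms with their partners, the members of highest level and smallest p of each complex, Cox4i2 and Ndufa4l2 with their partners, up to 4 called genes per related list, and Erbb2. Ndufv1, Cox5a, Cox5b, Cycs, Atp5a1, Atp5b, Atp5k and the slope of Cox7a2l were added after their values were seen.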

Additional observations from a re-analysis of the deposited data

Results flagged for a closer look

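In 74 sets of values by group, each a gene or a mean level, 12 had a lowest or highest tumour far from the others by Dixon's test, where chance flags about 1 in 20. The tumour p95HER2 7 was far below the other 7 p95HER2 tumours for mt-Co3 (4.35 log2 CPM), mt-Cytb (10.86), mt-Nd1 (9.92), mt-Nd2 (9.58), mt-Nd3 (1.18), mt-Nd5 (8.89) and the mean of the 13 mitochondrially encoded genes (6.34). These genes share their tumours and are not separate pieces of evidence. EV 1 was far below the other 9 EV tumours for Cox6a2 (-0.39 log2 CPM), Cox8b (-1.19), the mean of the 3 muscle isoforms (-0.53) and the mean of the skeletal muscle markers (2.46). EV 4 was far above the other EV tumours for Ndufa4 (7.32 log2 CPM). EV 2 and EV 5, the lowest for the mitochondrially encoded genes, lay apart from the rest as a pair and so were not marked by this test.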

How the results depend on the processing

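Between p95HER2 and EV tumours, 3 nuclear respiratory genes were called higher, and the count was 5 with limma voom, 5 without EV 1 and p95HER2 4, and 1 without EV 2, EV 5 and p95HER2 7. These last 2 sets were chosen after seeing the data. The nuclear genes called lower numbered 0, against 1 with DESeq2, the epithelial covariate, the muscle covariate or without EV 1 and p95HER2 4, and 2 with limma voom. Mitochondrially encoded genes called lower numbered 1 without EV 2, EV 5 and p95HER2 7, and muscle isoforms 2 without EV 1 and p95HER2 4. Of the related lists, 10 genes were lower with the muscle covariate and 2 with no filter. With limma voom 6 were higher, against 7.27% of all genes. Without EV 2, EV 5 and p95HER2 7, 1 was lower, against 1.47% of all genes. Shares over all genes are not given here for the fits with a covariate or with no filter, so those counts cannot be compared with them. Over all genes, 771 were called without those 3 tumours, against 1743. For the slope on the muscle level, 1 nuclear gene was positive and 1 negative. The positive count was 0 in EV or p95HER2 tumours alone, with limma voom or without EV 1 and p95HER2 4, and 3 with library totals. The negative count was 0 in those same 4 fits and with totals free of mitochondrial rows or library totals. All genes called for the slope numbered 474 in EV tumours alone, 264 in p95HER2 tumours alone, 581 with limma voom and 402 without EV 1 and p95HER2 4, against 1341. The cause was not tested. Fits on fewer tumours have less to test with.

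Leaving out 1 tumour gave 2 to 4 nuclear genes higher, 0 to 1 lower, 0 to 2 muscle isoforms lower, 3 to 5 related genes higher, 2 to 6 lower and 1289 to 2331 of all genes. For the slope it gave 0 to 2 nuclear genes positive, 0 to 1 negative and 403 (without EV 1) to 1693 of all genes.

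Signs that turned belonged to values that were not called, or to the slope of Cox7a2l. Without EV 2, EV 5 and p95HER2 7, the log2 fold change was -0.074 for mt-Co1, -0.048 for mt-Co3 and -0.028 for mt-Cytb. With the muscle covariate it was 0.00068 for mt-Nd2, 0.038 for mt-Nd4, 0.014 for mt-Nd5, 0.0034 for mt-Nd6, 0.030 for Cox6a2 and 0.014 for Ndufa4. With limma voom it was 0.027 for mt-Nd2, 0.028 for mt-Nd4, 0.0086 for mt-Nd5 and 0.032 for mt-Nd6. Without EV 1 and p95HER2 4, mt-Nd2 was at 0.00027 and the slope of Cox7a2l at 0.010. With 1 tumour left out, the ranges were -0.043 to 0.016 for Ndufa4, -0.052 to 0.16 for mt-Atp6, -0.056 to 0.10 for mt-Co1, -0.049 to 0.085 for mt-Co3, -0.0075 to 0.16 for mt-Cytb, -0.13 to 0.034 for mt-Nd2, -0.12 to 0.020 for mt-Nd3, -0.12 to 0.058 for mt-Nd4, -0.14 to 0.048 for mt-Nd5 and -0.14 to 0.040 for mt-Nd6. No paired analysis was possible because the labels carry no replicate numbers shared by the groups. Library totals differed between the groups without overlap, and the SE of mitochondrially encoded genes limits what could be seen there.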
